A study of Zea mays with 18 samples.

Results

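The 100 genes with the highest mean expression in unheated leaves of the maize inbred line W22 were taken from a table of 36321 genes, and their levels were followed in 6 groups of leaf libraries. The genes were chosen on the mean FPKM of the 3 unheated W22 libraries alone, so their height in those libraries is the selection itself. FPKM is the number of fragments scaled to transcript length and to the fragments mapped in the library, so levels of different genes are compared per length. All 100 genes were above 0 in every one of the 18 libraries, and 96 of them were above 100 FPKM in all 18.

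In a green leaf a small number of genes supply a large part of the messenger RNA, and many of these genes serve photosynthesis. Their products include proteins that hold chlorophyll around the photosystems, carriers that pass electrons along the thylakoid membrane, and enzymes of carbon fixation. During heat the same messenger RNA pool takes up transcripts of heat shock proteins, chaperones that bind unfolding proteins. An FPKM value is relative to its own library, so the level of an abundant gene is read here beside its share of the library.

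The groups were W22 and *nf-ya1*, each before heat (0 h), after 1 h of mild heat stress (1 h) and after 2 h of recovery from heat (R2h). Each of the 6 groups had 3 libraries. The line *nf-ya1* is homozygous for a Mu transposon insertion in *ZmNF-YA1* (Zm00001eb005690), which encodes a subunit of the NF-Y transcription factor, and it came from the UniformMu collection in the W22 background. RNA came from the lamina, without midrib, of the first fully expanded leaf of seedlings. The sample titles were used for the times, because the treatment text in the labels gives other ones, and how long the heat lasted before R2h is not stated for these libraries (10 h is given for the seedlings of the qRT-PCR time course).

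*ZmNF-YA1* was not absent from the libraries labelled *nf-ya1*. Before heat its FPKM was 22.79 to 26.55 in W22 and 12.6 to 21.2 in *nf-ya1*. In the 1 h libraries the ranges were 39.1 to 49.6 and 27.0 to 43.2, and after recovery 11.3 to 15.1 and 8.97 to 12.9. The groups overlapped at 1 h and R2h, so "*nf-ya1*" below means the libraries with that label. The study states that the mutant lacked *ZmNF-YA1* transcripts, and its qRT-PCR gave lower levels than in W22. FPKM of the gene is another measure than qRT-PCR and does not show whether the transcripts were intact. The total FPKM of a library was 804977 to 928910, and 24637 to 28580 genes were above 0. The 3 libraries of a group are biological replicates per the study's methods, and the number of plants behind each library is not stated. In bulk leaf RNA, fewer cells of a type and less RNA per cell cannot be told apart.

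The study's annotation, as far as it was held here, named 16 of the 100 genes. Among these 16, 10 are annotated as Chlorophyll A-B binding proteins, which carry the pigments of the light-harvesting antennae. The other 6 are an ABA/WDS induced protein (of a family named for its response to abscisic acid and water deficit), a protein with a blue (type 1) copper domain (the domain of plastocyanin and related electron carriers), subunit b of the F0 part of ATP synthase, a protein with a 2Fe-2S ferredoxin-type domain, a carbonic anhydrase and a small heat shock protein with an Alpha crystallin/Hsp20 domain. The annotated list covered 1996 genes that the study had called in these samples, so the 16 are not a fair sample of the 100, and their changes are not independent evidence of direction. The other 84 genes are given by ID without a role. No markers of other leaf cell types could be matched to IDs, and the leaf label was checked only through the Chlorophyll A-B binding genes, 10 of which were among the 100.

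The levels of the 100 genes were steeply graded in unheated W22. Zm00001eb407630 stood first with 42279 ± 2712 FPKM (SD, n = 3), 3.05 times the level of the second gene and 38.7 times that of the hundredth. The second was the Chlorophyll A-B binding gene Zm00001eb049640, with 13855 ± 929. The median of the 100 was 2359 FPKM, with 18 genes above 5000, 39 between 2000 and 5000 and 43 under 2000. The first gene held 11.9% of the FPKM of the 100, and the first 10 held 34.1%. After the first and second, the next 8 genes were Zm00001eb287770, Zm00001eb083680, Zm00001eb245320, Zm00001eb138650, Zm00001eb299990, Zm00001eb295610, the Chlorophyll A-B binding gene Zm00001eb343900 and Zm00001eb233170, from 10133 down to 6797 FPKM. Neighbours at the end of the list did not differ beyond their spread. Rank 99 (Zm00001eb226060) had 1096 ± 41.6 and rank 100 (Zm00001eb118870) 1092 ± 113. The first gene left out (Zm00001eb322600) had 1086 ± 86.9 and the next (Zm00001eb038530) 1081 ± 96.5. The median coefficient of variation of the 100 genes over the 3 libraries of a group was 6.96% (0 h), 17.1% (1 h) and 9.16% (R2h) in W22. The same median was 18.9%, 23.0% and 9.65% in *nf-ya1*, where 8 genes before heat and 8 after 1 h exceeded 50%.

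Together the 100 genes held a smaller share of the library at 1 h of heat than at recovery in both genotypes. The unheated W22 libraries gave them 38.9%, 41.2% and 40.7% of all FPKM, the heated ones 30.4%, 29.3% and 26.3%, and the recovered ones 39.1%, 35.9% and 37.3%. For *nf-ya1* these shares were 34.5%, 34.2% and 29.1% before heat, 27.40%, 25.01% and 23.15% after 1 h, and 35.9%, 37.7% and 35.5% in recovery. Every 1 h library thus lay below every library of its genotype at 0 h and at R2h. The W22 libraries at 0 h chose the genes, so the differences that involve them (W22 1 h minus 0 h, -11.6 percentage points, W22 R2h minus 0 h, -2.82, and *nf-ya1* minus W22 at 0 h, -7.63) are a description only. In the comparisons that left those libraries out, the share differed by -7.44 points for *nf-ya1* 1 h minus 0 h, 3.75 for *nf-ya1* R2h minus 0 h, 11.2 for *nf-ya1* R2h minus 1 h and 8.75 for W22 R2h minus 1 h. None of these 4 pairs of groups overlapped, and each had a two-sided exact permutation p of 0.1 (0.15 adjusted over 6 comparisons), the smallest that 3 against 3 libraries can give, so none could reach 0.05. Between the genotypes the libraries overlapped, with -3.49 points at 1 h (exact permutation p = 0.2, adjusted 0.24) and -1.06 at R2h (exact permutation p = 0.6, adjusted 0.6). With 1 library left out, the *nf-ya1* R2h minus 0 h difference was 2.01 without replicate 3 of *nf-ya1* 0 h. The genotype difference at R2h was -0.217 without replicate 1 and -1.84 without replicate 2 of W22 R2h, and -1.73 without replicate 2 and -0.624 without replicate 3 of *nf-ya1* R2h. Without Zm00001eb124960 and Zm00001eb124990, the 2 genes that rose most at 1 h, the differences were -11.0, 2.91, 13.9 and 14.4 points for the 4 changes over time, and -0.858 and -1.30 between the genotypes at 1 h and R2h.

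**Figure D1:**
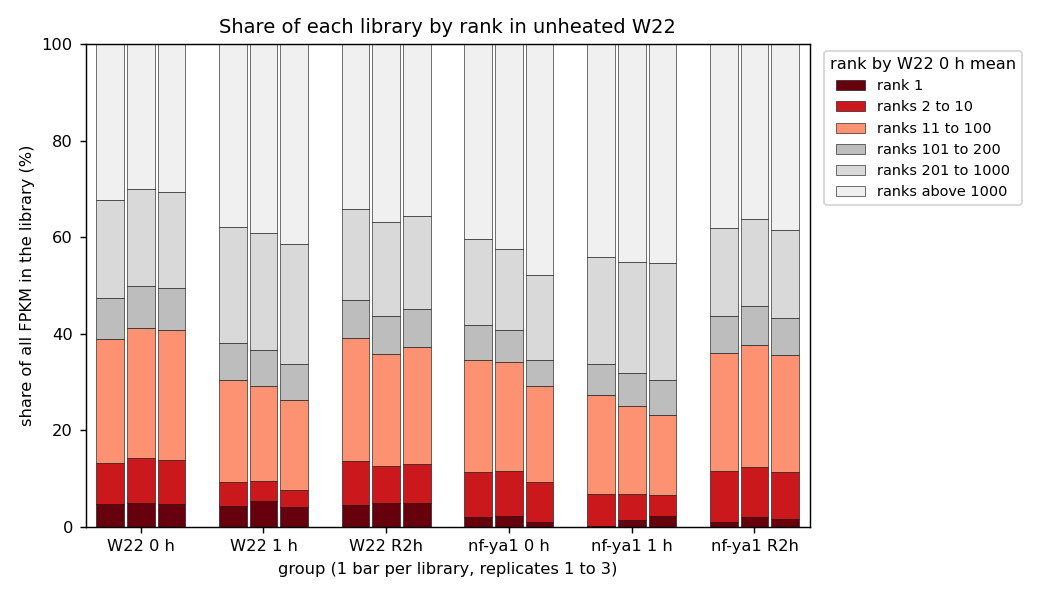
Share of the summed FPKM of each library (percent, y axis), 1 stacked bar per library in the 6 groups, split by rank in unheated W22, with the 100 genes in red shades at the bottom and all other genes in grey above. The 100 genes hold 38.9% to 41.2% in unheated W22, whose libraries chose them, and 23.1% to 30.4% in the 1 h libraries of both genotypes.

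The fall of the share at 1 h was not spread evenly over the ranks. In W22 the first gene kept 4.005% to 5.327% of the library at 1 h against 4.55% to 4.85% at R2h, whereas ranks 2 to 10 held 3.57% to 4.93% at 1 h and 7.70% to 9.14% at R2h. Ranks 11 to 100 held 18.8% to 21.3% and 23.3% to 25.4% in the same libraries. These ranks include Zm00001eb124960 and Zm00001eb124990, the 2 genes that rose most at 1 h. In W22 these 2 genes held means of 3.26% and 3.04% at 1 h, and 0.377% and 0.291% at R2h. Without them the 100 genes held means of 22.4% and 36.8%. The rest of ranks 11 to 100 thus differed more than the shares of these ranks show. In *nf-ya1* the first gene held 0.119% to 2.30% over all 9 libraries. Ranks 2 to 10 took 8.37% to 9.28% of the unheated *nf-ya1* libraries, 4.44% to 6.73% of the heated and 9.82% to 10.6% of the recovered ones. For these ranks the 1 h libraries of each genotype lay below its libraries at 0 h and R2h.

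Beside this, the Hsp20-annotated genes outside the 100 held 0.337% to 0.361% of the unheated W22 libraries, 13.1% to 14.2% of the heated and 0.520% to 0.826% of the recovered ones. In *nf-ya1* their shares were 0.107% to 0.201%, 15.4% to 16.1% and 1.19% to 1.80%. Their part in the lower share of the 100 genes at 1 h was not tested. When each library was ranked by itself, 95 to 98 of the 100 genes were among its own 100 highest in unheated W22, a count that follows from their choice in those libraries. The counts were 43 to 53 in W22 at 1 h and 38 to 46 in *nf-ya1* at 1 h. The genes that entered the highest 100 at 1 h included 16 to 17 annotated Hsp20 genes in W22 and 20 to 21 in *nf-ya1*. At R2h the 100 genes again supplied 83 to 87 of the highest 100 in W22 and 76 to 78 in *nf-ya1*. At 0 h they supplied 78 to 86 in *nf-ya1*. Each library's own 100 highest genes, whichever they were, held 45.8% to 49.7% of the W22 libraries at 1 h and 46.1% to 47.7% of the *nf-ya1* libraries, against 32.2% to 41.2% in the other groups.

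**Figure D2:**
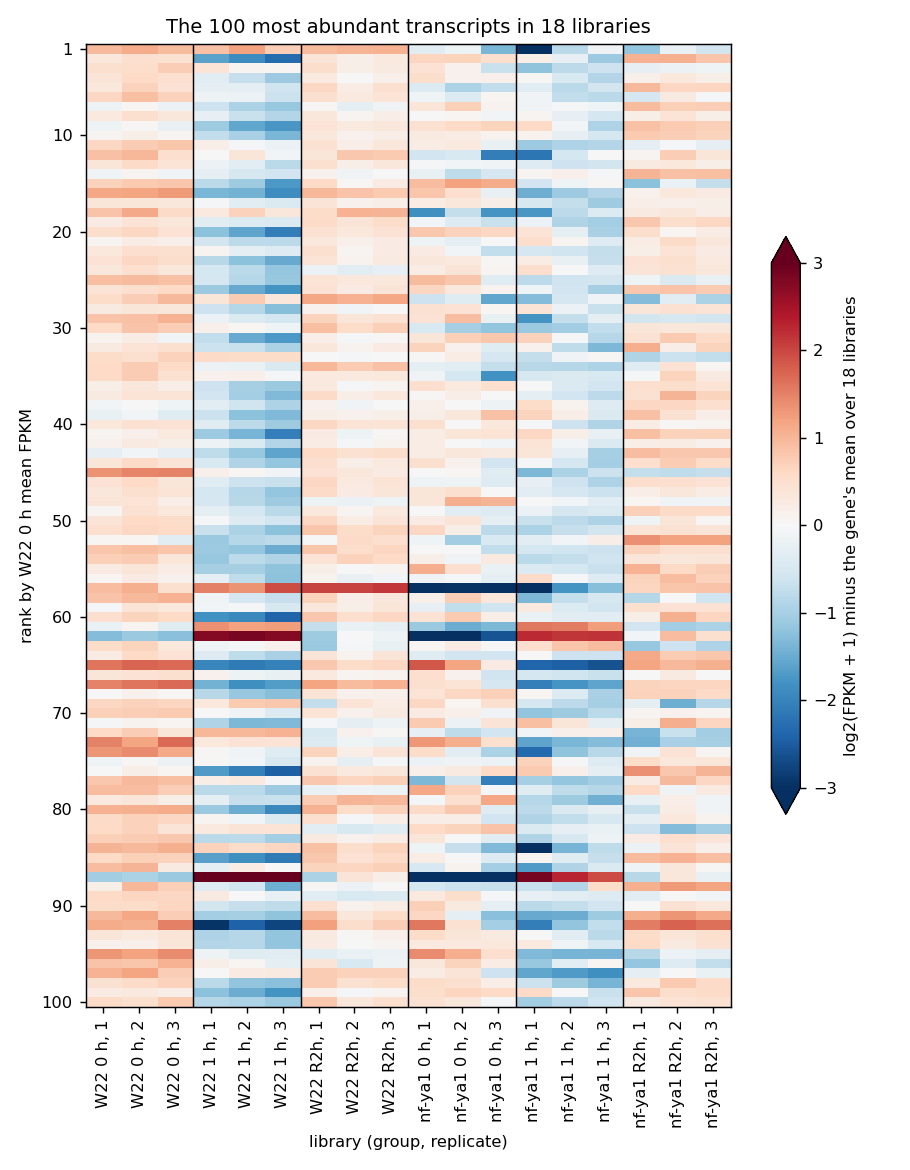
Level of each of the 100 genes (rows, in order of rank in unheated W22) in each of the 18 libraries (columns), as log2(FPKM + 1) minus the gene's mean over the 18 libraries, so red is above and blue below that mean. Most rows are blue in the 1 h columns, and the dark red cells there at ranks 62 and 87 are Zm00001eb124960 and Zm00001eb124990.

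Gene by gene, levels were compared on the log2(FPKM + 1) scale with limma over all 22572 genes above a minimum level, and a change counted as called when the Benjamini-Hochberg adjusted p did not exceed 0.01 and the log2 fold change reached 1 in either direction. All 100 genes passed the minimum. In the comparisons that used the selecting libraries, W22 1 h against 0 h had 3 of the 100 higher and 53 lower (5.79% and 20.7% of all genes tested). W22 R2h against 0 h had 0 higher and 5 lower (3.96% and 1.87%), and *nf-ya1* against W22 at 0 h had 0 higher and 21 lower (14.9% and 5%). Genes chosen for being high in the reference group tend to lie lower elsewhere, and nothing is read from these counts.

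In *nf-ya1*, whose libraries did not choose the genes, more of the 100 were called lower than higher after 1 h of heat on the FPKM scale. The selecting libraries entered this and the next 5 comparisons only through the estimate of the spread, which all 18 libraries shared. From 0 h to 1 h, 22 of the 100 fell and 3 rose, against 43.7% of all genes tested that fell and 7.62% that rose. A fit of only these 6 *nf-ya1* libraries called 10 lower and 3 higher. The median log2 fold change was -0.61 for the 100 and -0.92 for all genes tested; the difference between these medians was not tested. The direction belongs to the scale, because after scaling each library by the median ratio over genes, 26 of the 100 were higher and 3 lower (median 0.56, all genes -0.06), and after quantile normalization 3 were higher and 65 lower (median -1.32, all genes -0.17). Set against that median, the 100 genes were thus higher under FPKM and under median-ratio scaling and lower under quantile normalization.

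The genes that rose in *nf-ya1* at 1 h kept their direction and their call under every scaling. The small heat shock protein gene Zm00001eb124960 (rank 62) had 267, 158 and 696 FPKM in unheated *nf-ya1*, 19752, 18490 and 18862 after 1 h, and 3991, 7967 and 5827 in recovery. At 1 h it was the most abundant gene of 2 of the 3 libraries. Its log2 fold change at 1 h was 5.94 ± 0.42 (SE, limma adjusted p = 8.11e-09). The W22 libraries had 1719, 1936 and 1765 FPKM of the same gene before heat, 28292, 30438 and 28176 after 1 h, and 1995, 4189 and 3802 in recovery. From 1 h to R2h it fell by 3.19 in W22 (log2, limma adjusted p = 7.62e-06) and by 1.74 in *nf-ya1* (limma adjusted p = 0.00155), a call that was lost without replicate 1 of *nf-ya1* R2h. At R2h it was still above its 0 h level in every *nf-ya1* library, by 4.20 ± 0.42 (limma adjusted p = 1.5e-06).

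The other genes that rose carry no annotation here. Zm00001eb124990 (rank 87) had 96, 64 and 316 FPKM in *nf-ya1* at 0 h and 19090, 12724 and 10136 at 1 h, a log2 fold change of 6.74 ± 0.49 (limma adjusted p = 1.02e-08). Zm00001eb003730 (rank 61) had 932, 723 and 786, then 6064, 5823 and 4823, a change of 2.77 ± 0.19 (limma adjusted p = 6.18e-09). Neither gene's 1 h libraries overlapped those of 0 h. Among the genes that fell, Zm00001eb264880 (rank 65) went from 1973, 1221 and 637 FPKM at 0 h to 102.5, 97.8 and 87.3 at 1 h, a log2 fold change of -3.58 ± 0.27 (limma adjusted p = 1.49e-08). Zm00001eb415760 (rank 95) went from 1264, 1009 and 670 to 188, 179 and 179, a change of -2.38 ± 0.20 (limma adjusted p = 5.03e-08). Both were lower under every scaling. The carbonic anhydrase gene Zm00001eb158800 (rank 78), whose product interconverts carbon dioxide and bicarbonate, had 1801, 1310 and 786 FPKM at 0 h and 626, 475 and 447 at 1 h. Its log2 fold change was -1.27 ± 0.25 (limma adjusted p = 0.000245), but it was -0.10 and not called after median-ratio scaling, and the call was lost without replicate 1 of *nf-ya1* 0 h.

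**Figure D3:**
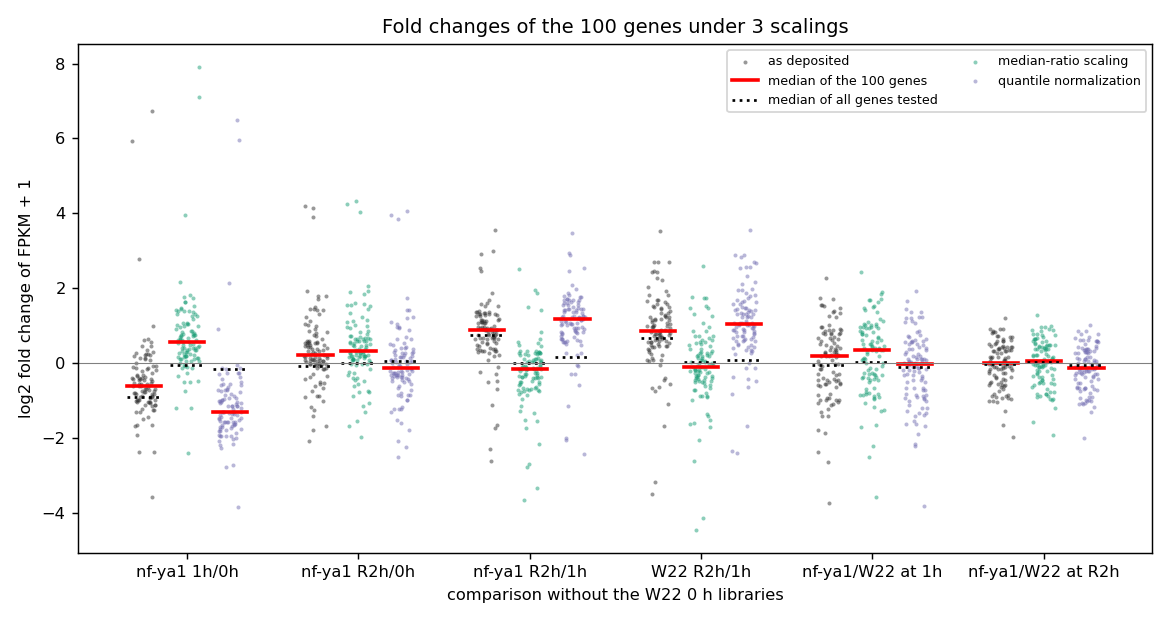
Log2 fold change of each of the 100 genes (points) in the 6 comparisons that leave out unheated W22, from FPKM as deposited, after median-ratio scaling and after quantile normalization, with the median of the 100 as a red line and that of all genes tested as a dotted line. The median of the 100 in *nf-ya1* 1 h against 0 h is -0.61, 0.56 and -1.32 under these scales, whereas the genotype comparison at R2h stays near 0.

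From 1 h of heat to recovery more of the 100 genes were called higher than lower on the FPKM scale in both genotypes. In each genotype 89 of the 100 had a log2 fold change above 0, against 77 in W22 and 79 in *nf-ya1* of the next 100 in rank. At an unadjusted p under 0.05, 72 of the 100 rose in W22 and 71 in *nf-ya1*, against 59.7% and 61.6% of all genes tested. In W22, 41 of the 100 rose and 4 fell, against 30.7% and 5.73% of all genes tested, with a median of 0.85 for the 100 and 0.66 for all genes. In *nf-ya1*, 35 rose and 5 fell, against 36.6% and 8.2%, with medians of 0.88 and 0.76. After median-ratio scaling the counts were 10 higher and 10 lower in W22 (median -0.11) and 5 higher and 10 lower in *nf-ya1* (median -0.17), and after quantile normalization 53 and 3 (median 1.04) and 60 and 4 (median 1.17). The percentage of rises in *nf-ya1* was near that of all genes, and the sign of the median depended on the scale in both genotypes. The next 100 genes in rank gave 33 rises and 11 falls in W22, and 40 rises and 11 falls in *nf-ya1*.

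The Chlorophyll A-B binding genes were among the risers between 1 h and R2h in W22. Calls went to 9 of the 10, against 30.7% of all genes tested called higher. All 10 had a log2 fold change above 0, with a median of 1.74 (0.61 to 2.43) against 0.66 for all genes. After median-ratio scaling 3 were called and 9 were above 0 (median 0.79), and after quantile normalization 9 were called (median 1.88). Zm00001eb049640 had 3336, 2780 and 2061 FPKM in W22 at 1 h and 13457, 11510 and 12485 at R2h, close to its 12824 to 14627 before heat. Its log2 fold change was 2.22 ± 0.28 (limma adjusted p = 5.95e-06). The gene with the largest rise of the 10, Zm00001eb179680 (rank 76), had 432, 341 and 258 at 1 h and 1947, 1718 and 1793 at R2h, a change of 2.43 ± 0.25 (limma adjusted p = 6.29e-07). In both genes every R2h library lay above every 1 h library. These genes form a family of similar sequences, and the counting could have divided reads among its members, so the values of single members are uncertain.

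Fewer of the Chlorophyll A-B binding genes were called in *nf-ya1*. From 0 h to 1 h none of the 10 was called by limma, against 43.7% of all genes tested called lower. At an unadjusted p under 0.05, 5 of the 10 were lower, against 67.7% of all genes tested. The median on the FPKM scale was -0.63 for the 10 and -0.92 for all genes. After median-ratio scaling it was 0.54 (all genes -0.06), with 3 called higher. After quantile normalization it was -1.10 (all genes -0.17), with 7 called lower. Without replicate 1 of *nf-ya1* 1 h 5 of the 10 were called lower, and without replicate 3 of *nf-ya1* 0 h 3 were. From 1 h to R2h, 3 of the 10 were called higher, near the 36.6% of all genes tested, and the median was 0.76 for the 10 and for all genes. After median-ratio scaling the median was -0.29 (all genes 0.01) with none called, and after quantile normalization 0.99 (all genes 0.16) with 5 called. Without replicate 1 of *nf-ya1* 1 h, 6 were called on the FPKM scale. From 0 h to R2h none was called by limma, against 6.89% of all genes tested called higher. At an unadjusted p under 0.05, 2 of the 10 were higher, against 21.1% of all genes tested. The median was 0.40 for the 10 and -0.09 for all genes. The R2h/1h change of these genes differed between the genotypes by a median of -0.86 (*nf-ya1* minus W22, all genes 0.06). All 10 were below 0, and 1 was past the threshold for the difference itself, against 3.89% of all genes tested in that direction.

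Genes annotated with a blue copper or ferredoxin-type domain or as ATP synthase subunit b were called in 1 to 3 of the 6 comparisons that did not contrast the selecting libraries. For the blue copper and ferredoxin-type genes the annotation names only a domain, so a role in photosynthesis was not established. The gene with a blue copper domain, Zm00001eb268360 (rank 23), rose in W22 from 1707, 1299 and 1064 FPKM at 1 h to 4042, 3233 and 3634 at R2h, a log2 fold change of 1.44 ± 0.23 (limma adjusted p = 4.43e-05) that was 0.49 and not called after median-ratio scaling. In *nf-ya1* its levels were 3562, 2586 and 1872 at 1 h and 4119, 4255 and 3688 at R2h, with no call. The ferredoxin-type gene Zm00001eb260140 (rank 71) had 849, 623 and 636 in W22 at 1 h and 1561, 1318 and 1423 at R2h. Its change of 1.04 ± 0.30 (limma adjusted p = 0.00624) lay at the threshold and was lost after median-ratio scaling (0.09) and without any one of replicates 2 and 3 of W22 1 h or the 3 replicates of W22 R2h. Ferredoxins pass electrons from photosystem I to several acceptors. The ATP synthase subunit b gene Zm00001eb397520 (rank 30), part of the stalk that joins the membrane and catalytic parts of the enzyme, had 1009, 1059 and 1297 in *nf-ya1* at 1 h and 2791, 2749 and 2748 at R2h. That rise was 1.31 ± 0.19 (limma adjusted p = 1.45e-05), against 0.26 and no call after median-ratio scaling.

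Unannotated genes showed the largest rises from 1 h to R2h in W22. Zm00001eb149430 (rank 92) had 65, 92 and 74 FPKM at 1 h and 1179, 724 and 842 at R2h, a log2 fold change of 3.54 ± 0.47 (limma adjusted p = 9.32e-06). Zm00001eb386660 (rank 67) had 209, 156 and 174, then 1279, 1084 and 1148, a change of 2.70 ± 0.21 (limma adjusted p = 4.32e-08). Both rises were called under every scaling, and the libraries did not overlap. The largest falls were those of Zm00001eb124990, from 27911, 27060 and 25950 to 1337, 3377 and 2992, and of the Hsp20 gene above. Zm00001eb003730 went from 5191, 4662 and 4782 to 1224, 1758 and 1654, a change of -1.67 ± 0.19 (limma adjusted p = 1.8e-06).

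At recovery, *nf-ya1* leaves differed from their own unheated state in 22 of the 100 genes. Of these, 15 were higher and 7 lower, against 6.89% and 11.6% of all genes tested, with a median of 0.20 for the 100 and -0.09 for all genes. After quantile normalization 9 were higher and 12 lower (median -0.12), and after median-ratio scaling 16 and 5 (median 0.32). A fit of only the groups compared called 6 higher and 2 lower. Zm00001eb397520 and Zm00001eb197410, described below, were not called in that fit. In the ATP synthase subunit b gene Zm00001eb397520 the levels were 1592, 1099 and 953 FPKM at 0 h and 2791, 2749 and 2748 at R2h, a log2 fold change of 1.22 ± 0.19 (limma adjusted p = 9.87e-05) that was 0.69 and not called after quantile normalization. The ABA/WDS induced gene Zm00001eb362480 (rank 12) had 2499, 2694 and 882 at 0 h and 3883, 6175 and 4758 at R2h, a difference of 1.42 ± 0.48 that did not pass (limma adjusted p = 0.0249). That gene was not called in any of the 6 comparisons without the selecting libraries.

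The largest unannotated rise from 0 h to R2h, after those of the Hsp20 gene and Zm00001eb124990 (4.13 ± 0.49, limma adjusted p = 7.73e-06), was that of Zm00001eb355990 (rank 57). Its *nf-ya1* libraries had 106, 145 and 139 FPKM before heat, 112, 330 and 469 after 1 h, and 1767, 2030 and 2074 in recovery. The rise was 3.91 ± 0.37 (limma adjusted p = 9.06e-07) and was called under every setting tried. The largest falls were in Zm00001eb172450 (rank 73), from 1368, 1189 and 772 to 205, 283 and 278 (-2.09 ± 0.20, limma adjusted p = 1.01e-06), and in Zm00001eb197410 (rank 15), from 6182, 7608 and 7104 to 1397, 2840 and 1995 (-1.80 ± 0.28, limma adjusted p = 9.44e-05). No library of either gene at R2h reached the level of any library at 0 h.

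Between the genotypes at 1 h of heat, 11 of the 100 genes were higher and 13 lower in *nf-ya1* than in W22, against 9.06% and 7.33% of all genes tested. The median was 0.18 for the 100 and -0.05 for all genes. After median-ratio scaling the counts were 16 higher and 7 lower (median 0.33), and after quantile normalization 10 and 16 (median -0.03), so the balance of higher and lower calls depended on the scale. Without replicate 2 of W22 1 h, 15 of the 100 were called in place of 24.

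Of the 11 genes called higher in *nf-ya1* at 1 h, 7 were Chlorophyll A-B binding genes. All 10 of these genes had a log2 fold change above 0, with a median of 1.29 (0.69 to 2.28), and all 10 were above 0 under every setting tried. The count of calls was less stable, with 9 after median-ratio scaling (median 1.44), 6 after quantile normalization (median 1.10) and 4 without replicate 2 of W22 1 h, without replicate 3 of W22 1 h or without replicate 1 of *nf-ya1* 1 h. With no filter on low values 2 of 6 genes called higher were Chlorophyll A-B binding genes, in a fit of only the groups compared 2 of 4, and the treat test called Zm00001eb179680 alone. Zm00001eb179680 had 432, 341 and 258 FPKM in W22 and 2416, 1579 and 1152 in *nf-ya1*, a difference of 2.28 ± 0.25 (limma adjusted p = 4.52e-06) that was called under every setting. Zm00001eb112260 (rank 41) had 1272, 1021 and 651 against 4129, 3051 and 2331, a difference of 1.70 ± 0.24 (limma adjusted p = 4.77e-05). Zm00001eb049640 had 3336, 2780 and 2061 against 11770, 8608 and 4827, a difference of 1.56 ± 0.28 (limma adjusted p = 0.000417). In Zm00001eb179680, Zm00001eb112260 and Zm00001eb049640 every *nf-ya1* library lay above every W22 library. The libraries overlapped in Zm00001eb357740, which was also called, with 1987, 1159.5 and 1015 in W22 and 5344, 3255 and 1850.5 in *nf-ya1*. Of the 11 Chlorophyll A-B binding genes that were annotated but less abundant than the 100, 5 were called higher at 1 h (median 1.40). Some of these 5 differed before heat already. At 0 h Zm00001eb161410 had means of 1.19 FPKM in W22 and 4221 in *nf-ya1*, and Zm00001eb161390 had 0.0867 and 846. Zm00001eb116960 had 33.8 and 165, Zm00001eb207130 835 and 1255, and Zm00001eb106810 1048 and 1042. Over the other 90 genes of the 100, 4 were higher and 13 lower, with a median of 0.01.

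**Figure D4:**
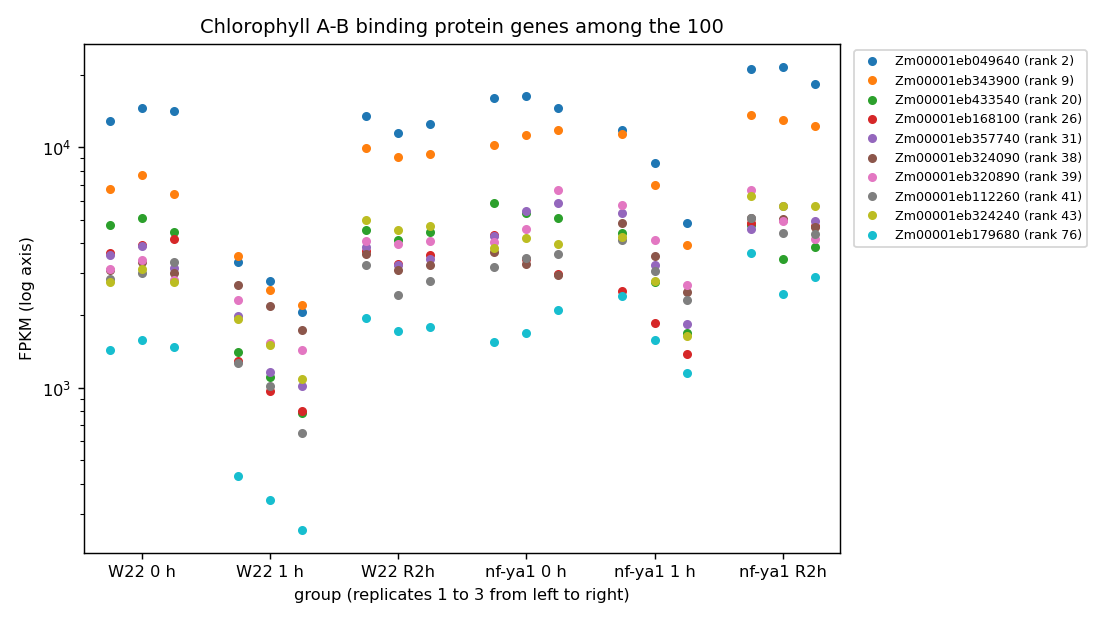
FPKM (log axis) of the 10 Chlorophyll A-B binding genes in each of the 18 libraries, 1 colour per gene, with the 3 W22 groups on the left and the 3 *nf-ya1* groups on the right. The W22 points at 1 h sit low, for Zm00001eb049640 between 2061 and 3336 against 4827 to 11770 in *nf-ya1*.

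As shares of the library, the 10 Chlorophyll A-B binding genes together took 1.40% to 2.25% of the W22 libraries at 1 h and 2.72% to 6.12% of the *nf-ya1* libraries. At 0 h they took 5.12% to 5.44% in W22 and 6.81% to 7.39% in *nf-ya1*, and at R2h 5.35% to 6.04% and 7.34% to 8.36%. The genotypes did not overlap at any of the 3 times, although the *nf-ya1* libraries at 1 h were spread widely. The Hsp20-annotated genes outside the 100, at 13.1% to 14.2% of the W22 libraries and 15.4% to 16.1% of the *nf-ya1* libraries at 1 h, were higher in *nf-ya1* as well, and their part in these shares was not tested.

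Among the genes not annotated as Chlorophyll A-B binding, the ferredoxin-type gene Zm00001eb260140 was higher in *nf-ya1* at 1 h. It had 2981, 2053 and 1314 FPKM against 849, 623 and 636 in W22 (1.53 ± 0.30, limma adjusted p = 0.000753). The unannotated Zm00001eb092540 (rank 60) was higher too, with 1062, 958 and 961 against 348, 320 and 230 (1.75 ± 0.22, limma adjusted p = 1.58e-05). The ATP synthase subunit b gene Zm00001eb397520 was lower, with 1009, 1059 and 1297 against 2429, 2284 and 2005. That difference of -1.001 ± 0.188 (limma adjusted p = 0.000538) stood at the threshold and was not called after median-ratio scaling (-0.85), nor without replicate 1 or replicate 2 of either group. The Hsp20 gene Zm00001eb124960 had 28176 to 30438 FPKM in W22 and 18490 to 19752 in *nf-ya1* and was not called (-0.61 ± 0.42, limma adjusted p = 0.254, and 0.51 after quantile normalization).

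Among the genes lower in *nf-ya1* at 1 h, Zm00001eb355990 differed most, with 112, 330 and 469 FPKM against 3254, 2911 and 4438 in W22 (-3.74 ± 0.37, limma adjusted p = 1.75e-06). The most abundant gene of all, Zm00001eb407630, had 38295, 48169 and 34543 FPKM in W22 at 1 h and 1103, 11829 and 19356 in *nf-ya1*. The difference was -2.66 ± 0.73 (limma adjusted p = 0.00807). The *nf-ya1* libraries at 1 h were spread far apart, the call was lost in 15 of the settings tried, and without replicate 1 of *nf-ya1* 1 h the difference was -1.40. At R2h it had 40125, 42414 and 43261 in W22 and 9312, 18149 and 14221 in *nf-ya1*. These groups did not overlap, and the difference of -1.65 ± 0.73 did not pass (limma adjusted p = 0.109). At 0 h, where W22 chose the gene, *nf-ya1* had 16836, 18768 and 8097. Every W22 library thus held more of this gene than every *nf-ya1* library at each time.

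At recovery the genotypes differed in few of the 100 genes. None was higher in *nf-ya1* and 2 were lower by limma, against 5.14% and 3.1% of all genes tested, with a median of -0.01 for the 100 and -0.02 for all genes. At an unadjusted p under 0.05, 17 were higher and 21 lower, near the 18.7% and 20.8% of all genes tested. The 2 genes were Zm00001eb359240 (rank 27), at 5096, 4700 and 5142 FPKM in W22 against 926, 1800 and 1177 in *nf-ya1* (-1.99 ± 0.33, limma adjusted p = 0.00056), and Zm00001eb157900 (rank 45), with 1377, 1291 and 1210 against 625, 607 and 633 (-1.05 ± 0.17, limma adjusted p = 0.00035). The second was not called after median-ratio scaling (-0.995). None of the 10 Chlorophyll A-B binding genes was called by limma at R2h. At an unadjusted p under 0.05, 4 of them were higher, against 18.7% of all genes tested, and 9 were above 0 with a median of 0.50. The count of 2 was 4 without replicate 3 of W22 1 h, 5 without replicate 1 of *nf-ya1* 1 h, 4 without replicate 3 of *nf-ya1* 1 h, 3 without replicate 1 of W22 R2h and 6 without replicate 2 of *nf-ya1* R2h.

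**Figure D5:**
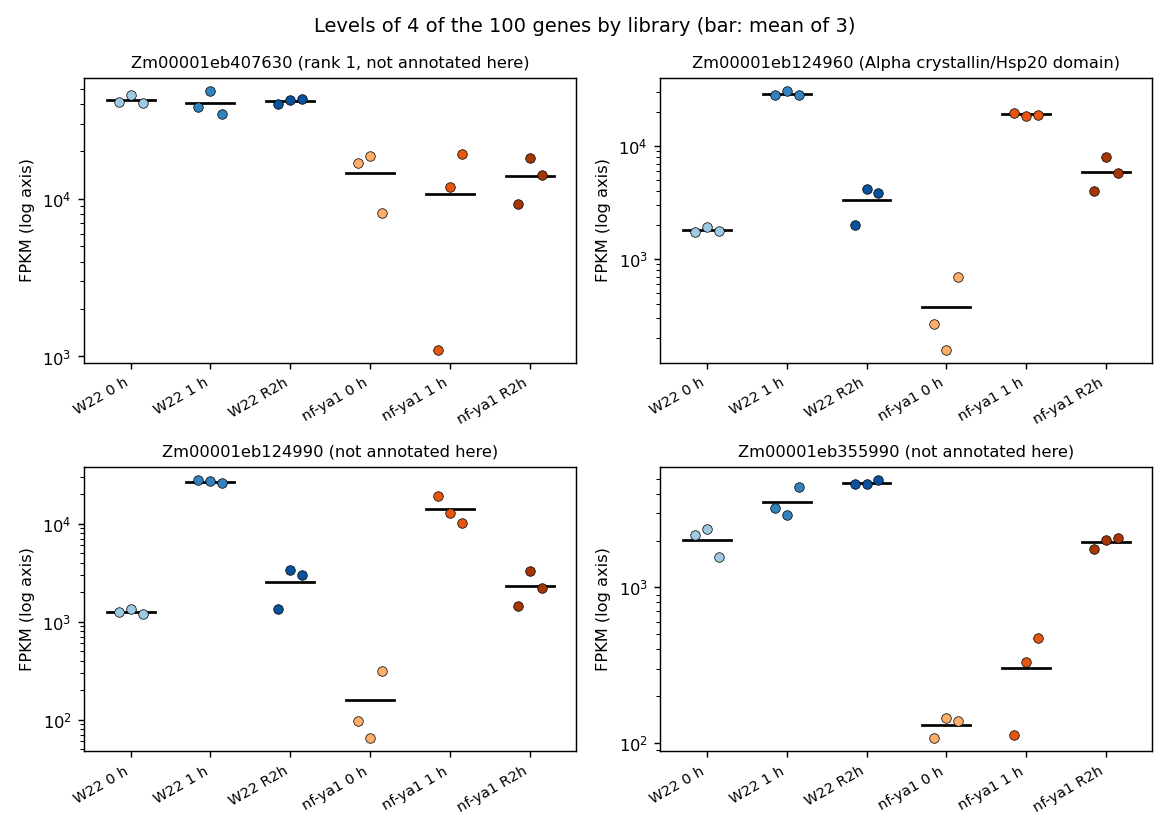
FPKM (log axis) of Zm00001eb407630, Zm00001eb124960, Zm00001eb124990 and Zm00001eb355990 in each of the 18 libraries, 1 panel per gene, with W22 in blue, *nf-ya1* in orange and a bar at the mean of each group's 3 libraries. Zm00001eb124960 reaches 18490 to 30438 at 1 h in both genotypes, and Zm00001eb407630 is lower in every *nf-ya1* library than in every W22 library. The W22 libraries at 0 h chose Zm00001eb407630. Its genotype call at 1 h was lost in 15 of the settings tried, and it was not called at R2h.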

How the data were processed

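RNA-seq of leaves was measured in 18 libraries, 3 in each of 6 groups. BGISEQ-500 reads were filtered and aligned to reference sequences of the B73 V5 assembly, and the authors deposited FPKM values, rounded to 2 decimals. The aligner and counting tool are not given in the sources used here. The W22 reads were set against another inbred line, so divergent genes can be undercounted. Without read counts, the depth and the counting error of a gene are unknown, and precision comes from the spread between libraries.

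The 100 genes with the highest mean over the 3 W22 0 h libraries were selected. These genes, the annotated families and the tests were chosen with earlier results of these data known. Groups followed the sample titles. log2(FPKM + 1), which understates changes of low genes, was fitted in limma 3.58.1 (R 4.3.3) with 1 mean per group and moderation with an intensity trend, over the 22572 genes that reached 1 FPKM in 3 or more libraries. P-values were adjusted over these genes by Benjamini-Hochberg. Shares of library FPKM were compared by exact permutation tests, two-sided, over 6 comparisons. The fitting was tested on simulated data. Python 3.11.15, pandas 2.3.3, SciPy 1.17.1 and Matplotlib 3.10.9 were used.

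The genes named are the 10 most abundant, the genes just inside and outside the selection, the members with the largest called rises and falls without overlap between libraries (at most 2 without an annotation in each direction and comparison) and the annotated members. Annotations came from the study's supplementary gene list, which was held in part. None of the gene IDs was found in the RefSeq gene table, so cell type markers, role lists beyond the annotated families, promoter motifs and shared proteins were not examined. The alternatives were quantile normalization, a pseudocount of 0.1, robust moderation, no filter, a filter at a mean of 5 FPKM, scaling by the median ratio, fits restricted to the 2 groups of a comparison, replicate numbers as a block, the treat test, an adjusted p of 0.05, other gene selections, and each library left out. The difference of R2h/1h between genotypes and the shares without Zm00001eb124960 and Zm00001eb124990 were added after the values were seen.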

Additional observations from a re-analysis of the deposited data

Results flagged for a closer look

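The change from 1 h to R2h was compared between the genotypes by the difference of the log2 fold changes (*nf-ya1* minus W22, limma), a comparison added after the values were seen. Of the 100 genes, 1 was past the threshold in the higher and 5 in the lower direction, against 4.06% and 3.89% of all genes tested. Among the genes named in the report, 4 were past it. Zm00001eb197410 differed by -1.98 ± 0.39 (limma adjusted p = 0.00243, -2.24 to -1.73 over the settings tried), with 1869, 1556 and 999 FPKM at 1 h and 4949, 3370 and 3905 at R2h in W22, and 2189, 2977 and 3355, then 1397, 2840 and 1995, in *nf-ya1*. Zm00001eb092540 differed by -1.77 ± 0.31 (limma adjusted p = 0.00109, -1.99 to -1.54), with 348, 320 and 230, then 2143, 1733 and 1885, in W22, and 1062, 958 and 961, then 1369, 2542 and 1917, in *nf-ya1*. The Chlorophyll A-B binding gene Zm00001eb179680 differed by -1.58 ± 0.35 (limma adjusted p = 0.00522, -1.83 to -1.30), and its *nf-ya1* levels were 2416, 1579 and 1152, then 3652, 2457 and 2878. Zm00001eb355990 differed by 2.47 ± 0.52 (limma adjusted p = 0.00378, 1.87 to 2.90), with 3254, 2911 and 4438, then 4623, 4646 and 4912, in W22.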

How the results depend on the processing

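The shares of library FPKM kept their direction under every gene selection and with each library left out, although the genotype difference at R2h ranged from -1.84 to -0.217 points. The counts of called genes depended on the scale, the threshold and the groups that entered the fit. Quantile normalization gave 68 calls for *nf-ya1* 1 h/0 h (25 in the report), 64 for *nf-ya1* R2h/1h (40), 8 for *nf-ya1*/W22 at R2h (2), 2 for W22 R2h/0 h (5) and 13 for *nf-ya1*/W22 at 0 h (21). Median-ratio scaling gave 15 for *nf-ya1* R2h/1h, 20 for W22 R2h/1h (45), 1 for *nf-ya1*/W22 at R2h, 21 for W22 1 h/0 h (56) and 8 for W22 R2h/0 h. A fit of only the groups compared gave 13 for *nf-ya1* 1 h/0 h, 8 for *nf-ya1* R2h/0 h (22), 12 for *nf-ya1*/W22 at 1 h (24), 5 at R2h and 10 at 0 h. The treat test, which requires a log2 fold change beyond 1, gave 7, 5 and 6 for *nf-ya1* 1 h/0 h, R2h/0 h and R2h/1h, 12, 14 and 0 for W22 R2h/1h, 1 h/0 h and R2h/0 h, and 2, 0 and 3 for *nf-ya1*/W22 at 1 h, R2h and 0 h. No filter gave 15 at 1 h, and an adjusted p of 0.05 gave 6 at R2h. Of the 50 highest genes, 6, 7 and 12 were called in *nf-ya1* 1 h/0 h, R2h/0 h and R2h/1h, 1 in W22 R2h/0 h and 2 in *nf-ya1*/W22 at R2h, and of the 200 highest, 8 at R2h. Leaving out 1 library gave 15 to 34 for *nf-ya1*/W22 at 1 h (15 without replicate 2 of W22 1 h), 2 to 6 at R2h (6 without replicate 2 of *nf-ya1* R2h) and 13 to 22 at 0 h (13 without replicate 3 of *nf-ya1* 0 h).

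The median of the 100 genes changed sign after median-ratio scaling for *nf-ya1* 1 h/0 h (0.56), *nf-ya1* R2h/1h (-0.17) and W22 R2h/1h (-0.11), after quantile normalization for *nf-ya1* R2h/0 h (-0.12) and *nf-ya1*/W22 at 1 h (-0.026), and with the 200 highest genes for the latter (-0.054). For *nf-ya1*/W22 at R2h, where the median lay near 0 (-0.014), it was 0.044 after median-ratio scaling, 0.063 for the 50 highest genes, and 0.069, 0.0018 and 0.078 without replicate 1 of W22 R2h, replicate 3 of W22 R2h and replicate 1 of *nf-ya1* R2h. In *nf-ya1* 1 h/0 h, median-ratio scaling also turned Zm00001eb179680 to 1.05, Zm00001eb112260 to 1.02, Zm00001eb260140 to 1.16, Zm00001eb397520 to 1.08 and Zm00001eb118870 to 0.11. A further 8 annotated genes, not called under either scale, changed sign as well, to between 0.18 and 0.86. The cause was not tested. No pairing by replicate number was seen, as 2 of 45 same-numbered pairs of libraries correlated above 0.1. Their correlations ran from -0.168 to 0.204, and those of the other pairs from -0.181 to 0.197. Such low correlations cannot exclude a pairing. With the replicate number as a block the counts were 25, 22, 40, 45, 23 and 2 for the 6 comparisons that do not contrast the selecting libraries, and no call of a named gene changed. Genes selected on 1 unheated W22 library and measured in the other 2 had a median of -1.08 to -1.01 for W22 1 h/0 h and -0.46 to -0.42 for *nf-ya1*/W22 at 0 h.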
